A study of Mus musculus with 20 samples.

Results

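The livers of offspring exposed to an adverse maternal environment (AME) were compared between birth (AME-d0, 5 libraries) and weaning at 21 days of age (AME-d21, 5 libraries), which is 10 of the 20 libraries measured. All animals were labelled male, and the dams were C57BL/6J mice. The study's methods describe no genetic modification and do not name the strain of the sires. AME dams received a Western diet from before pregnancy through lactation and were stressed in late pregnancy, so that d0 livers had been exposed in utero and d21 livers had also been exposed through the milk. Newborns were delivered by caesarean section, and d21 pups were fasted for 5 h before collection. The other 10 libraries, 5 Con-d0 and 5 Con-d21, came from offspring of unstressed dams on a control diet and are used only to ask whether the change with age differed. The study used 5 litters per group at each age. Livers were taken at the end of life, so no animal was sampled at both ages. The methods do not say that every sequenced animal came from its own litter, and p-values measure the spread between these samples only.

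DNA methylation was read by reduced representation bisulfite sequencing (RRBS), in which the enzyme MspI cuts out CpG-rich fragments and bisulfite turns unmethylated cytosines into bases read as thymine. Members were the 629021 autosomal CpGs with at least 10 reads in all 10 AME libraries, of 4204508 autosomal CpGs with a read in any library. Counts of their methylated and unmethylated reads were also summed over 109543 bins of 200 bp with at least 2 such CpGs, and over 15671 promoters, which here are the 2 kb centred on the transcription start site (TSS) of a gene, with at least 3 such CpGs. Methylation is given as the percent of reads that were methylated, and a difference (Δme) in percentage points, AME-d21 minus AME-d0.

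Around birth the mouse liver is a blood-forming organ, crowded with erythroid, myeloid and megakaryocytic precursors among immature hepatocytes. By weaning blood formation has moved to the bone marrow, and hepatocytes that secrete plasma proteins and run glucose, lipid and bile acid metabolism make up most of the tissue. Methylation at some gene starts and at enhancers differs between these cell types, while most of the CpG-poor genome is methylated in adult cells. Whole liver was measured, so a change in the share of a cell type and a change of methylation within its cells cannot be told apart in any result given here.

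AME-d21 livers were more methylated than AME-d0 livers over the genome as a whole, but a smaller set of sites lost methylation. The sequences of a part of the bins named for the largest losses are given first. Each is a short stretch outside CpG islands that was mostly methylated at birth and mostly unmethylated at weaning. Capitals mark the CpGs that were measured, and the build is GRCm38. The first lies in an intron of Slc22a23, a member of the organic ion transporter family, the second in an intron of Pitpnc1, which encodes a phosphatidylinositol transfer protein, the third in coding sequence of Mgat1, which starts the building of complex N-glycans, and the fourth in an intron of Iqsec1, an exchange factor for ARF GTPases.
Slc22a23, chr13:34223201-34223400, + strand: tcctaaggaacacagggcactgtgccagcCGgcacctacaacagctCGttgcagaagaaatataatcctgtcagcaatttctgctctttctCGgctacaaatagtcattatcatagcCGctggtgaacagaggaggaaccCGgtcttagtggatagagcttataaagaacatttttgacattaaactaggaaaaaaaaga
Pitpnc1, chr11:107341601-107341800, + strand: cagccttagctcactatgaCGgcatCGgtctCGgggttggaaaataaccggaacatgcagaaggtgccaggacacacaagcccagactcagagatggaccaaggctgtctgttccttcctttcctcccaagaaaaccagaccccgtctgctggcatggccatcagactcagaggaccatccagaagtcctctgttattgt
Mgat1, chr11:49261001-49261200, + strand: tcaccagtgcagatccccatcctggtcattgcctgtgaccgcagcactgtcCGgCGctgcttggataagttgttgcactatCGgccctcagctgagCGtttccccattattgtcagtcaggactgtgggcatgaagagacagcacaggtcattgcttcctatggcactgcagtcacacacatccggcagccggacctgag
Iqsec1, chr6:90706601-90706800, + strand: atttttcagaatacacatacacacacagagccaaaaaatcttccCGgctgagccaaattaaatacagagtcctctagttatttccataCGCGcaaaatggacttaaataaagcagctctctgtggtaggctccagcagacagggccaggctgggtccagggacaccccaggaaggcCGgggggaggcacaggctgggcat

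Of the 8 bins named for the largest gains, 4 were in CpG islands, which was not typical of rising bins. Of all rising bins, 3.70% were in islands and 89.7% outside islands and shores, against 5.26% and 82.9% of falling bins. The bin at Bri3 and Baiap2l1 is intronic and outside islands, while those at Mn1 (a transcriptional coregulator), Zfp703 (a zinc-finger corepressor) and Plekhh3 are in exons and in islands.
Bri3 and Baiap2l1, chr5:144277401-144277600, + strand: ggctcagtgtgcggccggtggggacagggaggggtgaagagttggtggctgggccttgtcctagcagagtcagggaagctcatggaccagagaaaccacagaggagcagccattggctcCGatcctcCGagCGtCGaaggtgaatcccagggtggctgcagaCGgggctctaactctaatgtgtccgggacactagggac
Mn1, chr5:111420201-111420400, + strand: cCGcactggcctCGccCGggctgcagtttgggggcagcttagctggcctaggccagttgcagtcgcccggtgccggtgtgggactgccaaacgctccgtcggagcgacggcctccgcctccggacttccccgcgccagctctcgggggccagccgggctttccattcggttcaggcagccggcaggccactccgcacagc
Zfp703, chr8:26979601-26979800, + strand: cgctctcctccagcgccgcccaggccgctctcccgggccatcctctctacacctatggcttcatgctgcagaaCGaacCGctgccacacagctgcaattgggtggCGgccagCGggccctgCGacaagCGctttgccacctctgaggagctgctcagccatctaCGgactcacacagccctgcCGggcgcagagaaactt
Plekhh3, chr11:101164001-101164200, + strand: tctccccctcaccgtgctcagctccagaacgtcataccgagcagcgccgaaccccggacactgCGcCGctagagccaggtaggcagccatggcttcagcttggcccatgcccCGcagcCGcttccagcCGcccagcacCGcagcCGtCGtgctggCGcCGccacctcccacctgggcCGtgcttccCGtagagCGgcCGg

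Fut11, Abcg8 and Proz stand for the promoters. Fut11, a fucosyltransferase gene, is shown over 300 bases of coding sequence after its start, where 39 measured CpGs went from unmethylated to about equal numbers of methylated and unmethylated reads. Abcg8, a subunit of the sterol exporter of liver and gut, and Proz, which encodes the vitamin K-dependent plasma protein Z, are shown over the 250 bases before the start in RefSeq. The Abcg8 stretch also overlaps an exon of the neighbouring Abcg5, which is transcribed the other way.
Fut11, chr14:20695168-20695467, + strand: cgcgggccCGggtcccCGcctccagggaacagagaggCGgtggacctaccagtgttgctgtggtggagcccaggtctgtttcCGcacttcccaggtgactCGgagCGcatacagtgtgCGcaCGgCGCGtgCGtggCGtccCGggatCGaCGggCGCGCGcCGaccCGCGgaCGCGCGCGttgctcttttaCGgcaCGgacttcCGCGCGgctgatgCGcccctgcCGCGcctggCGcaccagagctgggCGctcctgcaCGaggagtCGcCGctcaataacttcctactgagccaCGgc
Abcg8, chr17:84676052-84676301, + strand: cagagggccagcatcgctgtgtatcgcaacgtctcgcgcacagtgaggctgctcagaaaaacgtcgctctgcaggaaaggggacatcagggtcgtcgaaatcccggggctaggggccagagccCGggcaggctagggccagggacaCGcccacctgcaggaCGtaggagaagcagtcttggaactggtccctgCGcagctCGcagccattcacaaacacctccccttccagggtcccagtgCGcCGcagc
Proz, chr8:13060658-13060907, + strand: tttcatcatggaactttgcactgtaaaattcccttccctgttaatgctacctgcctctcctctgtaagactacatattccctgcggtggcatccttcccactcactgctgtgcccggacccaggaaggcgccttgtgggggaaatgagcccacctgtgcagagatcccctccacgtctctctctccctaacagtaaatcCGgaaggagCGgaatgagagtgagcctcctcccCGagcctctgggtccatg

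Sequencing depth was similar in the 2 groups, with 28983007 to 36802549 reads over CpGs in AME-d0 and 23248139 to 35590513 in AME-d21. The library labelled AME-d21 replicate 4 went against its label. It held 2.88 X-chromosomal reads per 100 autosomal reads, where the other AME-d21 libraries held 1.53 to 1.55, and 14.3 reads of the Y short arm per 1000000 reads, where the others held 166 to 191. Only autosomes were analysed, and the counts of DMCs, bins and promoters are also given without it. AME-d0 replicates 1 and 3 stood apart as the least methylated of their group, with mean bin levels of 43.3% and 44.8% against 45.7% to 46.4% in the other AME-d0 libraries.

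Mean methylation of all CpGs was 32.1%, 34.4%, 33.1%, 33.9% and 34.4% in the 5 AME-d0 libraries and 38.4%, 38.4%, 38.7%, 38.2% and 38.4% in the 5 AME-d21 libraries. Every AME-d21 library lay above every AME-d0 library, and the AME-d0 libraries were spread more widely. The mean rose from 33.6% ± 0.988 to 38.4% ± 0.157 (SD, n = 5 each), or by 4.84 points, with p = 0.00794 in an exact two-sided permutation test, the smallest p that 5 against 5 can give. The adjusted p was the same in all 11 sequence contexts tested, since the groups did not overlap in any of them.

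The size of the rise depended on CpG density. CpG islands, which were nearly unmethylated, rose from 5.30% ± 0.0907 to 6.21% ± 0.0312. Shores, the 2 kb beside islands, rose from 36.4% ± 0.989 to 42.4% ± 0.222. CpGs outside both rose from 65.3% ± 2.01 to 74.4% ± 0.296, or by 9.16 points. With distance from the nearest TSS the rise grew from 0.945 points within 1 kb to 5.68 points at 1 to 5 kb, 8.41 points at 5 to 50 kb and 9.04 points beyond 50 kb. Exons gained 2.71 points, introns 5.71 points and sequence between genes 6.65 points.

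**Figure D1:**
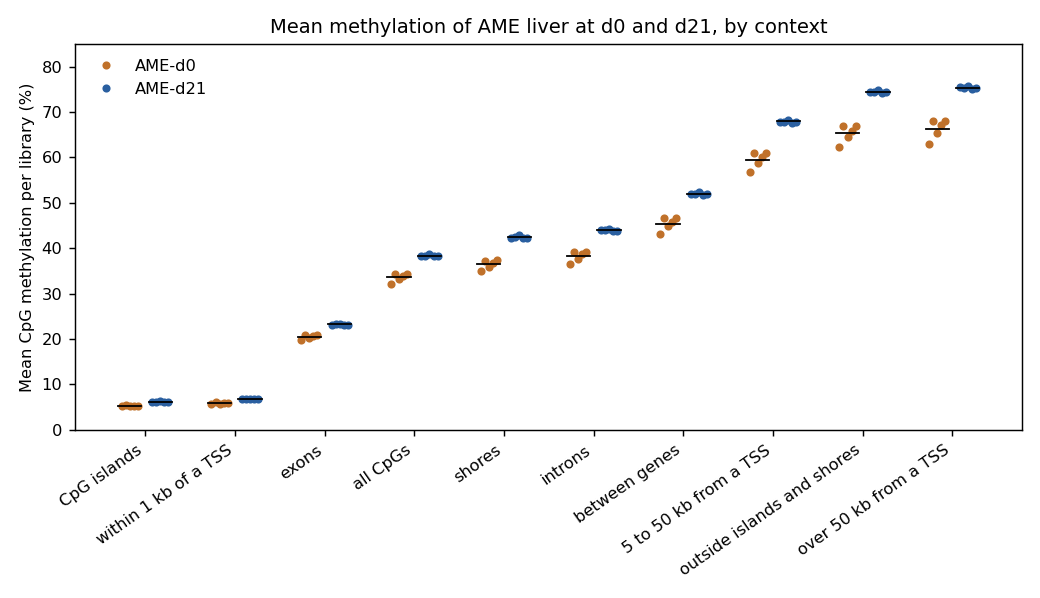
Mean CpG methylation in percent (vertical axis) of each of the 5 AME-d0 and 5 AME-d21 libraries (points) in 10 sequence contexts, with group means as bars. The 2 ages do not overlap in any context, the rise is 0.912 points in islands and 9.16 points outside islands and shores, and the AME-d0 points are spread more widely than the AME-d21 points.

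At single CpGs, 21598 differentially methylated cytosines (DMCs) rose and 4670 fell, which is 3.43% and 0.742% of the CpGs tested, at the study's limits of 0.001 for p and 10 points for Δme in a quasi-binomial model. The p was taken here without adjustment, since the study's methods do not say whether it was adjusted. Rising DMCs had a median Δme of +31.9 points and falling DMCs a median of −37.2 points. Islands held 50.3% of the tested CpGs but 14.2% of the DMCs, and CpGs outside islands and shores held 44.3% of those tested and 75.7% of the DMCs. These counts were lower in every fit with fewer libraries, where the test also has fewer degrees of freedom. With any 1 library left out, 13418 to 15183 rose and 3353 to 3733 fell. Of these fits, the one without the library labelled AME-d21 replicate 4 gave 14178 and 3455. With AME-d0 replicates 1 and 3 left out together, 7610 rose and 2383 fell.

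Bins carry more reads per test and were compared with limma on log2((methylated + 1)/(unmethylated + 1)), with calls at a Benjamini-Hochberg adjusted p below 0.05 and a Δme of at least 10 points. Of 109543 bins, 33807 (30.9%) rose and 3174 (2.9%) fell, and the median Δme of all bins was +5.56 points. Without AME-d0 replicates 1 and 3, 25697 rose and 2942 fell, and 72.5% of the rising and 87.6% of the falling bins were still called in the same direction. Without the library labelled AME-d21 replicate 4, 33312 rose and 3044 fell.

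Of the rising bins, 64.5% started between 50% and 80%. Bins at 80% or more made up 15.3% to 23.3% of the bins of an AME-d0 library and 39.6% to 40.8% of those of an AME-d21 library. Of the bins between 50% and 80% at d0, 57.8% had a mean of 80% or more at d21. Of the bins under 20% at d0, 94.1% stayed under 20%. Of the falling bins, 55.3% started between 50% and 80% and 33.3% between 20% and 50%. The share that fell was highest in the 20% to 50% class, where 12% fell and 48.3% rose.

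The share of bins that rose declined with CpG density, from 52.2% of bins with 2 to 3 CpGs in the reference to 3.0% of bins with 13 or more. Outside islands and shores 45.0% of bins rose and 3.90% fell, against 29.0% and 4.90% in shores and 3.63% and 0.485% in islands. Introns held 36.8% of the tested bins, 42.3% of the rising and 50.6% of the falling bins. Sequence between genes held 33.5% of the tested bins, 39.0% of the rising and 26.2% of the falling bins.

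AME-d21 livers were also more alike. The mean absolute difference between 2 libraries over all bins was 4.4 to 5.57 points within AME-d0, 3.67 to 4.21 points within AME-d21 and 8.12 to 11.1 points between the ages. The median SD of a bin was 3.99 points in AME-d0 and 2.85 points in AME-d21. In the 3 AME-d0 libraries left without replicates 1 and 3 it was also 2.85 points, but the measures did not all become equal. The median SD of 3 libraries tends to be lower than that of 5, so such values are not directly comparable. Over the bins with a mean AME-d0 level of 20% or more, the median SD was 5.65 points in AME-d0, 4.49 points without those replicates and 4.0 points in AME-d21. Pairs among AME-d0 replicates 2, 4 and 5 differed by 4.4 to 4.58 points, above the highest AME-d21 pair.

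The 8 named losses and 8 named gains were taken from bins in which the ages did not overlap, so the gap itself is part of the choice. The Slc22a23 bin read 75.0%, 72.2%, 71.4%, 75.8% and 70.1% in AME-d0 and 8.51%, 4.24%, 1.52%, 4.84% and 6.00% in AME-d21. Its mean fell from 72.9% ± 2.40 to 5.02% ± 2.55 (SD, n = 5 each), a log2 change of −5.63 with SE 0.34 and an adjusted p of 5.2e-08. It was the largest loss among bins meeting the rule for named bins, and it had at least 124 reads in every library.

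The Mgat1 bin read 80.4%, 90.8%, 93.4%, 89.1% and 89.4% in AME-d0 and 36.0%, 28.9%, 22.1%, 27.3% and 18.9% in AME-d21 (adjusted p = 3.6e-07, limma). The Pitpnc1 bin read 83.3%, 75.8%, 58.0%, 74.7% and 79.8% in AME-d0 and 21.9%, 6.98%, 8.97%, 7.84% and 13.7% in AME-d21 (adjusted p = 1.1e-06, limma). Both kept a gap of over 30 points between the closest libraries of the 2 ages. The Iqsec1 bin read 78.7%, 79.2%, 83.9%, 74.7% and 86.8% in AME-d0 and 12.4%, 16.3%, 23.1%, 31.5% and 13% in AME-d21 (adjusted p = 7.8e-07, limma). The other 4 named losses were at Dysf (dysferlin, a membrane repair protein), Nfkbib (an inhibitor of NF-κB), Reep3 and Kdm4a (a histone H3 demethylase). Their means fell to between 13.3% and 23.4%, from between 75.1% and 84.1%.

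Among the gains, the Plekhh3 bin rested on 14 CpGs with at least 298 reads in every library. It read 12%, 11.6%, 17.3%, 16% and 13.1% in AME-d0 and 76.3%, 82.6%, 83.2%, 79.7% and 82.3% in AME-d21, a log2 change of 4.70 with SE 0.26 and an adjusted p of 2.3e-08. The Mn1 bin read 0.855%, 7.32%, 2.22%, 6.25% and 3.42% in AME-d0 and 76.5%, 76.1%, 73.3%, 70.8% and 69.7% in AME-d21 (adjusted p = 1.1e-07, limma). Both are exonic island bins that were low in all AME-d0 libraries and high in all AME-d21 libraries.

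The Zfp703 bin read 7.61%, 13.8%, 20.2%, 12.6% and 22.1% in AME-d0 and 78.8%, 76.4%, 91.5%, 85.2% and 85% in AME-d21. The bin at Bri3 and Baiap2l1 read 17.1%, 17.1%, 15.5%, 14.4% and 15.3% in AME-d0 and 95.0%, 72.6%, 90.0%, 88.1% and 86.7% in AME-d21. The remaining named gains were at Pura, Fignl2, Itgal and Rai1, with AME-d0 means of 5.83% to 17.2% and AME-d21 means of 73.1% to 88.0%. Itgal encodes the αL subunit of the leukocyte integrin LFA-1. All 16 named bins kept their call under every alternative tried.

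**Figure D2:**
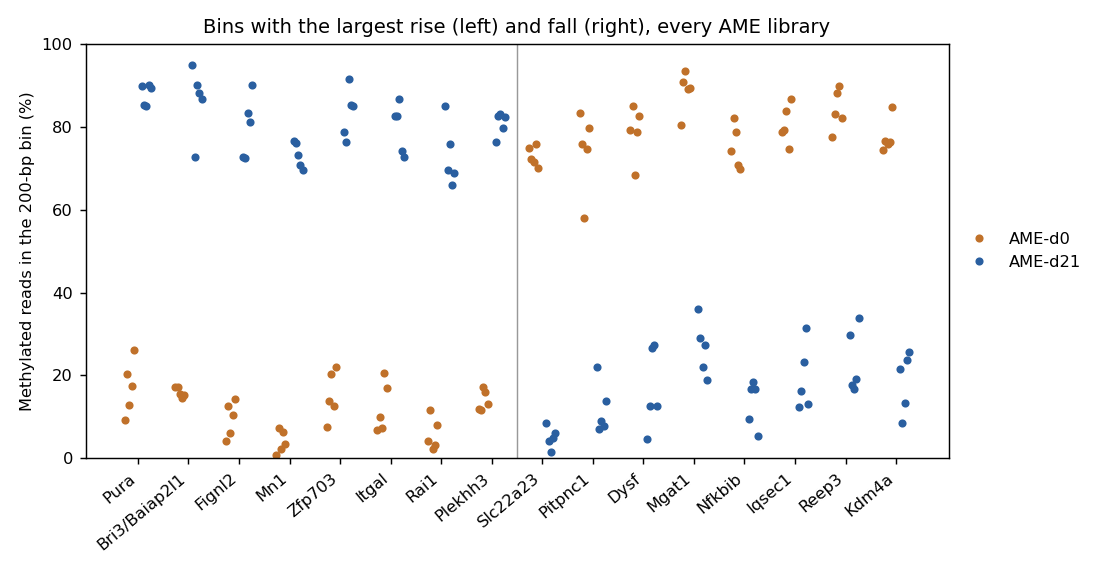
Percent of methylated reads (vertical axis) in the 8 bins with the largest rise (left) and the 8 with the largest fall (right), each point 1 of the 5 AME-d0 or 5 AME-d21 libraries. In the rising bins no AME-d0 library exceeds 26.1%, in the falling bins none is below 58.0%, and the 2 ages do not overlap in any of the 16 bins.

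Called bins no more than 1 kb apart were merged into 28121 rising and 2624 falling regions, of which 678 and 59 held 3 or more bins. The rising region with the most CpGs among those named was at Mn1 (chr5:111418201-111421200), where all 12 tested bins, with 96 CpGs, rose. It read 15.4%, 17.8%, 17.4%, 17.3% and 18% in AME-d0 and 64.0%, 69.3%, 68.1%, 63.5% and 66.1% in AME-d21. At Fignl2 (chr15:101052201-101054600) 9 bins rose together, from a mean of 24.9% ± 2.34 to 79.0% ± 1.42. The longest named region was at Flg2, a filaggrin-family gene of the skin barrier (chr3:93209801-93215600), where 12 of 13 bins rose, from 75.2% ± 4.92 to 90.5% ± 0.761. Regions at Ifnlr1, a subunit of the interferon lambda receptor, and at Zfp579 held 7 rising bins each.

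The falling regions were shorter. In Runx3, a transcription factor of lymphocytes, 5 bins (chr4:135154601-135156200, 25 CpGs) read 41.5%, 42.1%, 38.6%, 33.1% and 37.9% in AME-d0 and 5.50%, 4.51%, 10.1%, 7.04% and 4.83% in AME-d21. In Trf, which encodes the plasma iron carrier transferrin, 5 of 6 bins (chr9:103226201-103228000) fell from a mean of 72.0% ± 2.81 to 43.6% ± 5.02. The region with most bins was at the uncharacterised gene 2700081O15Rik with the microRNA gene Mir6991 (chr19:7422001-7423600, 6 bins, 56 CpGs), and fell from 63.0% ± 2.03 to 25.3% ± 7.06. Regions of 4 bins fell in Rnf220, a ubiquitin ligase gene, from 47.2% ± 1.34 to 12.4% ± 5.09, and at C530008M17Rik from 44.8% ± 2.33 to 16.2% ± 2.21.

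Transitions from nearly no methylation were rare. Only 37 bins were under 5% in every AME-d0 library and at 30% or more in every AME-d21 library, limits that were chosen after the values had been seen. Of these, 24 were in islands and 26 in exons, and their mean level went from 1.53% to 46.6%. Fut11 held 5 of them, and Meis2 (a homeobox gene) and Patz1 (a zinc-finger gene) held 2 each. Another 2 lay in Fgfr2, a fibroblast growth factor receptor gene, which Tacc2 overlaps in the annotation. In the other direction, 6 bins went from 60% or more in every AME-d0 library to under 20% in every AME-d21 library, all outside islands and shores.

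Promoters changed less often than bins. Of 15671 promoters, 1254 (8%) rose and 176 (1.12%) fell, and the median Δme was +0.0406 points. Without the library labelled AME-d21 replicate 4, 1204 rose and 168 fell, and without AME-d0 replicates 1 and 3, 882 rose and 151 fell. Among the 11195 protein-coding promoters 426 rose and 83 fell, and 9776 were under 10% at both ages. The promoters of all other genes, long noncoding RNAs among them, rose in 18.5% and fell in 2.08% of 4476 cases. Promoters at 20% or more at d0 held 1023 of the 1254 rises and 166 of the 176 falls.

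The protein-coding promoters with the largest rise included several of blood-cell genes. Nrros, which restrains reactive oxygen species in phagocytes, read 8%, 18%, 19.8%, 18.2% and 15.7% in AME-d0 and 72.3%, 69.3%, 76.6%, 77.9% and 66.4% in AME-d21 (log2 change 3.83, SE 0.32, adjusted p = 3e-06). Itgal read 9.73%, 18.4%, 11.1%, 24.0% and 21.3% in AME-d0 and 71.5%, 71.3%, 75.9%, 73.5% and 66.3% in AME-d21. Gimap1, a GTPase gene of lymphocytes, read 13.9%, 18.8%, 21.3%, 19.4% and 21.3% in AME-d0 and 69.3%, 73.7%, 67.5%, 62.5% and 64.1% in AME-d21. In each of these genes the lowest AME-d21 library was over 40 points above the highest AME-d0 library.

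Cbfa2t3, a corepressor of blood progenitors, rose from 12.2% ± 5.54 to 59.6% ± 5.59 (adjusted p = 8.4e-06, limma). Rhd, the Rh blood group antigen of red cells, rose from 32.8% ± 8.39 to 80.2% ± 3.74. The others of the 10 were Fut11, Dnajb3 (a heat-shock cochaperone within the Ugt1a locus), Hes7 (an oscillating repressor of somite formation), Bcat2 (the mitochondrial branched-chain aminotransferase) and Scnn1a (a subunit of the epithelial sodium channel). Dnajb3 rose from 1.61% ± 0.924 to 49.7% ± 5.49, and Bcat2 from 6.08% ± 3.05 to 54.0% ± 7.52.

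Fut11 had the largest log2 change of the named promoters. Its 53 CpGs together read 0.0829%, 0.0425%, 0.0441%, 0.0747% and 0% in AME-d0 and 49.2%, 57.6%, 52.8%, 41.0% and 47.2% in AME-d21 (log2 change 10.18, SE 0.33, adjusted p = 3.3e-10). All 53 CpGs, which lie 208 to 928 bp after the start, were higher at d21, with means of 9.28% to 65.1%, and none had a mean above 0.541% at d0. The Abcg8 promoter rose from 3.66%, 5.00%, 4.29%, 5.83% and 3.21% to 54.1%, 51.6%, 52.2%, 45.8% and 55% (adjusted p = 1.5e-07, limma). Each of its 8 CpGs, between 127 bp before and 4 bp after the start, was higher at d21.

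The largest promoter losses included genes of secreted liver proteins. Kng2 encodes a kininogen, the precursor of bradykinin, and read 63.8%, 84.4%, 72.2%, 65.5% and 68.9% in AME-d0 and 32.6%, 12.6%, 26.5%, 29.0% and 41.0% in AME-d21 (adjusted p = 0.00033, limma). Fgb, the fibrinogen β chain, read 57.3%, 63.8%, 58.6%, 54.8% and 71.3% in AME-d0 and 15.6%, 15.7%, 26.4%, 29.3% and 26.5% in AME-d21 (log2 change −2.45, SE 0.32, adjusted p = 9.5e-05). Apoc2, the apolipoprotein that activates lipoprotein lipase, read 58.8%, 56.4%, 52.9%, 57.5% and 48.2% in AME-d0 and 21.5%, 21.6%, 20.2%, 19.7% and 16.6% in AME-d21. The ages did not overlap in any of these promoters.

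Proz, whose stretch before the start is printed above, read 53.9%, 51.2%, 61.4%, 57.7% and 56.7% in AME-d0 and 17.1%, 16.8%, 20.8%, 28.2% and 30.4% in AME-d21 (adjusted p = 0.00013, limma). All 9 of its CpGs, and all 7 of the Fgb promoter, were lower at d21. The other named losses were Slc23a1 (a vitamin C transporter), Eif4ebp3 (a repressor of translation), Rbp7 (a retinol-binding protein), Glyctk (glycerate kinase), Ranbp3l and Gm42417 (a predicted gene). Their means fell from between 48.7% and 69.1% to between 14.5% and 28.3%.

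**Figure D3:**
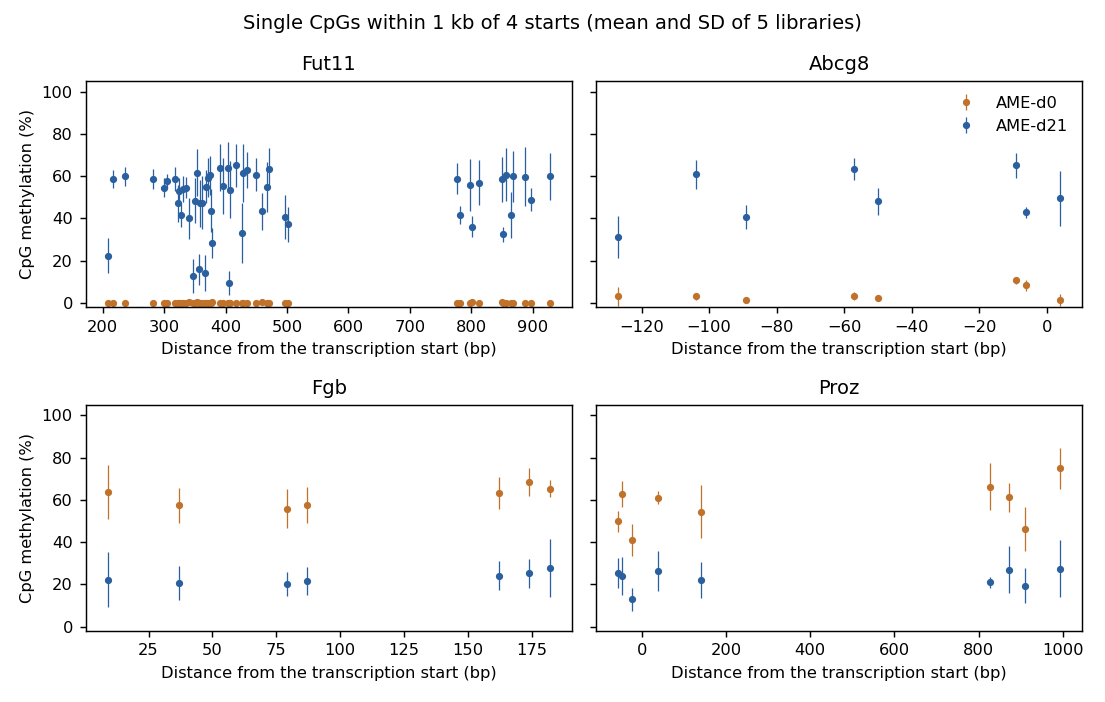
Methylation of single CpGs in percent (vertical axis, mean and SD of 5 libraries) against distance from the TSS in bp at Fut11, Abcg8, Fgb and Proz, for AME-d0 and AME-d21. At Fut11 no CpG has an AME-d0 mean above 0.541% while AME-d21 means run from 9.28% to 65.1%, and every measured CpG of Fgb and Proz is lower at d21.

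Genes of hepatocyte plasma proteins and enzymes were then followed as a list, beside lists of blood and other liver cell types. Of 29 hepatocyte genes, 5 had a promoter that could be tested, and 4 fell while 0 rose, with a median Δme of −22.4 points (all promoters: +0.0406 points, 1.12% fell). They were Fgb, the clotting factors F2 and F7, and Ambp, which encodes α1-microglobulin and bikunin. F2 read 59.0%, 60.9%, 58.3%, 60.9% and 61.5% in AME-d0 and 32.8%, 33.3%, 20.4%, 22.6% and 24.5% in AME-d21. F7 read 29.9%, 46.0%, 38.5%, 49.7% and 41.4% in AME-d0 and 13%, 14.3%, 30.1%, 11.7% and 26.7% in AME-d21, so that the lowest AME-d0 library was just below the highest AME-d21 library. Apoh, with 34 CpGs, was at 0.168% ± 0.161 and 0.0780% ± 0.130.

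Because so few of these promoters could be tested, all bins within these genes or 5 kb of them were counted as well, a count added after the promoters had been seen. Of 56 bins 25 fell, or 44.6% against 2.9% of all bins, and 13 rose, or 23.2% against 30.9%. In the fibrinogen cluster 4 of 4 bins of Fga, 2 of 2 of Fgb and 2 of 3 of Fgg fell, where neighbouring genes can share a bin. In Trf 7 of 11 bins fell, and in F10 3 of 4. Single bins fell at Apoa1 and Apoc3, which share it, and at Ahsg, by 32.1 and 37.7 points. F12 went the other way, with 3 of 3 bins higher, by 22.3 to 31.6 points. Other genes of the list also had rising and no falling bins. These were Hp (1 of 1 bin rose), Asgr1 (1 of 1), Itih3 (2 of 3), Itih1 (1 of 2) and Cyp2e1 (1 of 2).

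Some promoters of blood-cell genes rose and none of those tested fell. Of 13 tested promoters of the haematopoietic progenitor and myeloid list 4 rose and 0 fell, of 9 erythroid promoters 3 rose, and of 5 megakaryocyte promoters 2 rose, against 8% of all promoters. Their median Δme was small, at +0.606, +0.228 and +1.06 points, since 9, 6 and 3 of these promoters were under 10% at both ages. The mean level of the tested haematopoietic promoters ran from 6.45% to 7.2% in AME-d0 libraries and from 16.6% to 18.1% in AME-d21 libraries, while that of the hepatocyte promoters ran from 37.9% to 45.1% and from 16.3% to 21.4%. The part of these cell types in the changes at other genes was not tested. Of the lymphoid lists, 1 of 2 tested B cell promoters and 1 of 2 tested T and NK cell promoters also rose. Bins in or within 5 kb of the erythroid genes rose in 15 of 102 cases (14.7%) and fell in 4 (3.92%). For the megakaryocyte genes 27 of 78 bins rose (34.6%) and 1 fell (1.28%), against 30.9% and 2.9% of all bins.

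Lyl1, a helix-loop-helix factor of blood progenitors, read 0%, 0%, 0%, 0.529% and 0% in AME-d0 and 32.5%, 46.3%, 34.1%, 45.1% and 42.7% in AME-d21 (log2 change 6.26, SE 0.28, adjusted p = 1.2e-08), and its start lies within the annotated Nfix gene. Csf3r, the receptor of the granulocyte growth factor, read 14.9%, 11.3%, 17.7%, 14.3% and 18% in AME-d0 and 51.3%, 55.7%, 52.3%, 44.0% and 48.7% in AME-d21. The promoters of Vav1, a signalling protein of blood cells, and of Cebpe, a granulocyte transcription factor, rose by 30.8 and 25.0 points. Of the 162 bins in or within 5 kb of the haematopoietic genes 47 rose (29.0%, against 30.9% of all bins) and 7 fell (4.32%, against 2.9%). Genes named from these bins were chosen after their values had been seen. All 7 bins of the granule protease gene Elane rose, whereas 0 of 5 bins of Tal1 and 0 of 7 of Myb, which are transcription factors of blood progenitors, and 2 of 13 of Coro1a did, and the 1 bin of the cytokine receptor gene Csf2rb fell by 33.5 points.

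Among erythroid genes Gypc, which encodes glycophorin C, read 0.987%, 1.54%, 0.749%, 0.746% and 1.37% in AME-d0 and 12.3%, 14.2%, 12.9%, 13.9% and 11.8% in AME-d21. Trim10, needed for terminal erythroid differentiation, rose from 62.9% ± 6.95 to 86.7% ± 2.58. Of the platelet genes, Pf4 (platelet factor) read 10.5%, 16.7%, 14.7%, 20.6% and 19.6% in AME-d0 and 49.4%, 55.2%, 55.9%, 44.5% and 61.9% in AME-d21, and Gp1bb rose from 14.9% ± 3.91 to 50.9% ± 16.3. Cd79b, a chain of the B cell receptor, read 17.7%, 20.5%, 12.4%, 22.2% and 23.7% in AME-d0 and 83.1%, 71.6%, 69.0%, 77.4% and 70.6% in AME-d21. The ages did not overlap in any of these promoters.

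Zap70, a T cell kinase, rose by 13.5 points (adjusted p = 0.022, limma), a call that 5 of 14 alternatives lost, with adjusted p-values of 0.053 to 0.093. Those were the fits without AME-d0 replicate 2, without AME-d21 replicate 5, without AME-d0 replicates 1 and 3, without these and the library labelled AME-d21 replicate 4, and with the replicate block (adjusted p = 0.061). By limma call, 8% of all promoters rose and 1.12% fell, and 27.1% were higher at an unadjusted p below 0.05. Kupffer cell promoters gave 0 limma calls among 4, of which 2 were higher at an unadjusted p below 0.05. Cholangiocyte promoters gave 0 calls and 0 at an unadjusted p below 0.05 among 6. Of 6 endothelial promoters, Tie1 and Eng rose, from 23.7% ± 8.23 to 64.7% ± 8.48 and from 9.50% ± 3.22 to 48.3% ± 5.17. Of 9 stellate and mesenchymal promoters, Pdgfrb rose from 7.79% ± 0.404 to 32.2% ± 3.52 and Col1a2 from 24.7% ± 5.07 to 42.4% ± 6.27. The Col1a2 call was lost (adjusted p = 0.062, limma) when AME-d0 replicates 1 and 3 and the library labelled AME-d21 replicate 4 were left out together.

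**Figure D4:**
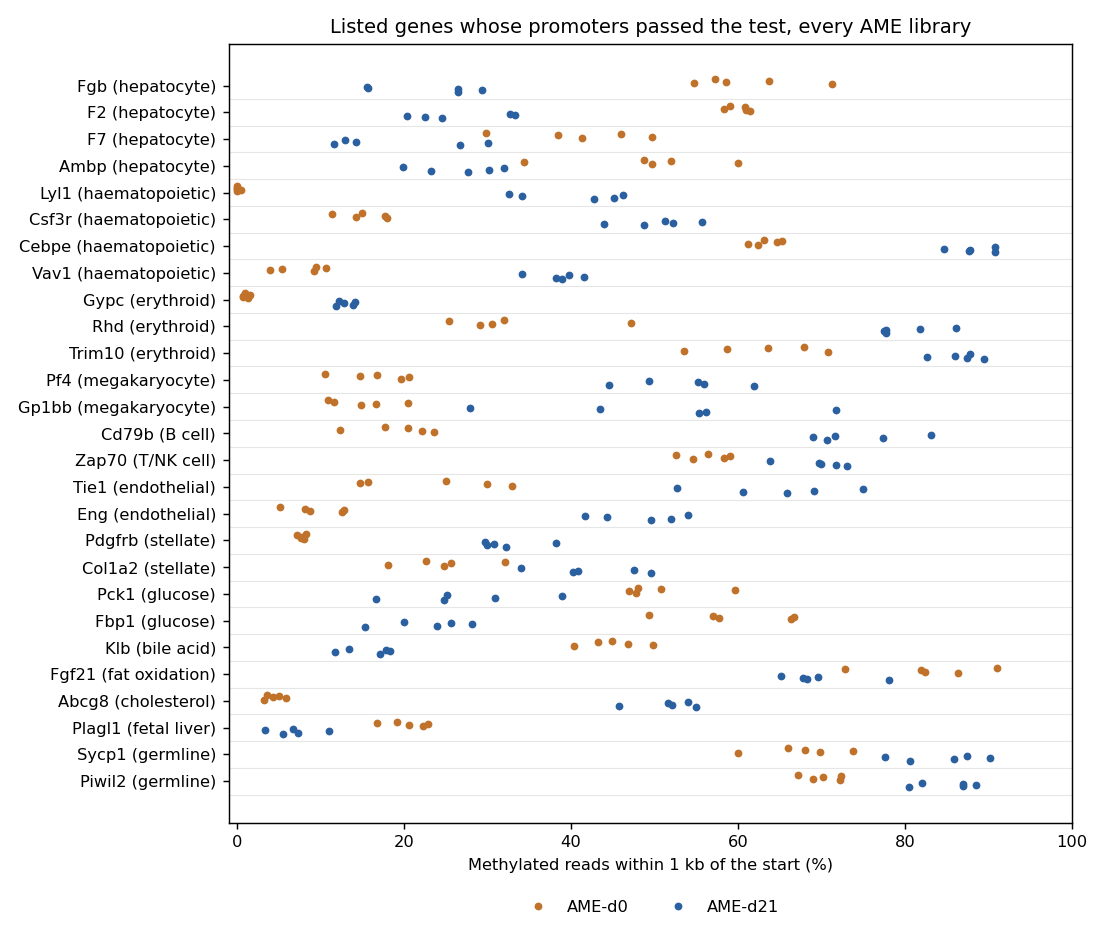
Percent of methylated reads (horizontal axis) in each of the 5 AME-d0 and 5 AME-d21 libraries for the listed genes whose promoters passed the test, with the list in brackets. Hepatocyte, glucose, bile acid and fat oxidation genes and Plagl1 (around its GENCODE start) lie lower at d21. Blood-cell, endothelial, stellate and germline genes and Abcg8 lie higher. The ages overlap in F7 and Fgf21.

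Genes of liver metabolism had few called promoters, since most of those tested were nearly unmethylated at both ages. In glucose metabolism 2 of 11 fell, against 1.12% of all promoters. Fbp1, a gluconeogenic phosphatase, read 49.4%, 57%, 66.7%, 57.8% and 66.4% in AME-d0 and 20%, 25.6%, 28.2%, 24.0% and 15.4% in AME-d21 (log2 change −2.30, SE 0.30, adjusted p = 9.2e-05). Pck1, which commits carbon to gluconeogenesis, read 48.0%, 50.8%, 59.7%, 46.9% and 47.8% in AME-d0 and 25.2%, 38.9%, 30.9%, 16.7% and 24.9% in AME-d21 (adjusted p = 0.0038, limma). The ages did not overlap in either gene.

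Klb, the coreceptor of the hormones FGF15 and FGF21, was the 1 of 4 bile acid promoters that fell, from 45.0% ± 3.61 to 15.7% ± 2.94. In fatty acid oxidation 1 of 13 fell, that of Fgf21, a hormone of the fasted liver, which read 91.0%, 72.8%, 81.9%, 82.4% and 86.4% in AME-d0 and 65.2%, 69.6%, 67.8%, 68.3% and 78.1% in AME-d21. Its adjusted p was 0.029 (limma) and was 0.054 to 0.19 in the 8 of 14 alternatives that lost the call, each of which left out libraries: AME-d0 replicate 1 or 5, any 1 of AME-d21 replicates 1 to 4, AME-d0 replicates 1 and 3, or these and AME-d21 replicate 4. Around Fgf21, 4 of the 5 bins in or within 5 kb of the gene rose, by up to 30.4 points, and 1 fell, by 13.1 points. In cholesterol metabolism Abcg8 was the 1 of 17 that rose. Of all promoters 8% rose and 1.12% fell. All bins of these lists were also counted, after the promoters had been seen. In glucose metabolism 29.8% of 84 bins rose and 7.14% fell, against 30.9% and 2.9% of all bins. For bile acid genes 40.5% of 42 bins rose and 9.52% fell. For fatty acid oxidation these were 21.7% and 6.52% of 92 bins, and for cholesterol 20.2% and 11.9% of 109.

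Several lists gave 0 limma calls, although single promoters passed an unadjusted p below 0.05, at which 27.1% of all promoters were higher and 5.45% lower. These were fatty acid and triglyceride synthesis (3 of 15 lower), the urea cycle and amino acid breakdown (1 of 12 higher, 3 lower), P450 and conjugation enzymes (2 of 3 higher), growth hormone, insulin and IGF (3 of 11 higher) and glucocorticoid signalling (2 of 7 higher). Among regulators, 2 of 13 liver transcription factor promoters were higher and 4 lower, and 1 of 11 promoters of the methylation machinery was higher. Of 15 cell division promoters 5, and of 31 Hox promoters 17, were higher at this unadjusted p, and of 12 housekeeping promoters 0 were. Without the minimum of 10 points, 3 of the IGF group and 12 of the Hox group passed the adjusted p, all upward, against 19.4% of all promoters upward and 3.17% downward. Arg1, the arginase of the urea cycle, missed the 10-point minimum, with 11.2% ± 4.56 at d0 and 1.77% ± 1.16 at d21 (adjusted p = 0.001, limma). Acaca and Fasn, which are genes of fatty acid synthesis that the study followed, were at 2.59% ± 0.409 and 0.223% ± 0.139 at d0 and at 2.09% ± 1.95 and 0.177% ± 0.127 at d21.

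Plagl1, an imprinted zinc-finger gene expressed in fetal tissues, was the 1 of 16 imprinted promoters, and of 9 fetal liver promoters, that fell. Around the GENCODE start used here it went from 20.3% ± 2.46 to 6.82% ± 2.82 over 25 CpGs. The start in RefSeq lies 30328 bp from it, and the 12 CpGs measured shortly before that start hardly changed. Their means were 38.7% to 45.4% in AME-d0 and 39.9% to 42.9% in AME-d21, with differences of −2.96 to +2.83 points. Of 13 germline promoters Sycp1 and Piwil2 rose, from 67.5% ± 5.09 to 84.4% ± 5.16 and from 70.2% ± 2.19 to 85% ± 3.49. For comparison with these 3 lists, 8% of all promoters rose and 1.12% fell. The housekeeping genes had means of 0.0829% to 0.217% per library at both ages.

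Motifs of liver factors were present in a larger share of the falling than of the rising bins. The 200 bases of each bin outside islands and shores were searched on both strands for fixed letters. HNF4 (CAAAGTCCA) was present in 0.989% of 2630 falling bins, 0.175% of 30326 rising bins and 0.230% of all 67376 bins. HNF1 (GTTAATNAT) was present in 0.951%, 0.237% and 0.294%, and the FOXA form TGTTTAC in 5.06%, 1.81% and 2.32%. These 3 are factors that hepatocytes depend on.

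The second FOXA form TATTTAC was in 2.97% of falling, 1.35% of rising and 1.64% of all bins. C/EBP was searched as TTGCGCAA, found in 6 falling bins (0.228% against 0.0416% of all), and as TTGCACAA (0.875% against 0.512%). The NFI motif TTGGCA was in 15.2% of falling, 9.24% of rising and 9.70% of all bins. Motifs of blood factors differed less and not all in the same direction, since the GATA letters were more frequent in falling than in rising bins. PU.1 (AGGAAGT) was in 3.84% of falling, 5.08% of rising and 4.38% of all bins, RUNX (TGTGGTT) in 3.12%, 4.08% and 3.52%, KLF1 (CCACACCC) in 1.79%, 2.44% and 2.24%, the GATA factors (AGATAAG) in 2.55%, 1.92% and 1.83%, and E2A/TAL (CAGATG) in 16.1%, 16.6% and 16%.

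The median content of G and C was 52.5% in falling, 52.0% in rising and 52.5% in all of these bins. No motif searched contains another, and the shares are a description with no test. Of the printed bins, that at Bri3 and Baiap2l1 holds the RUNX letters on the minus strand at bases 94 to 100, and that at Mn1 holds the NFI letters on the minus strand at bases 85 to 90. Both of these bins rose, and no printed bin that fell holds any of the searched letters.

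Finally, the change with age in AME liver was set beside that in Con liver, which shares no library with it, to ask whether the exposure altered it. Over 104589 bins tested in all 20 libraries, the 2 changes had a Pearson correlation of 0.921, and over 15392 promoters of 0.953, across features that share libraries within each arm. The median bin rose by 5.49 points in AME and 4.48 points in Con. The AME value was 4.36 points without AME-d0 replicates 1 and 3, which were picked as the least methylated of their group.

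No bin and no promoter differed in its change with age at an adjusted p below 0.05 by the interaction term of limma. At an unadjusted p below 0.05, 5206 bins (4.98%) and 776 promoters (5.04%) differed. In the same fit 32832 bins rose in AME and 26537 in Con, and 21754 of them were shared, which is 66.3% of the AME and 82.0% of the Con bins. Of the falling bins, 2745 were shared, or 88.0% of 3118 in AME and 81.3% of 3377 in Con. No bin called in one was called in the opposite direction in the other.

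Mean methylation of all CpGs rose by 4.83 points in AME and 4.03 points in Con, a difference of 0.801 points with p = 0.202 in an exact two-sided permutation test. Without AME-d0 replicates 1 and 3 the difference was 0.158 points (p = 0.839, exact permutation test), and leaving out the library labelled AME-d21 replicate 4 as well gave 0.202 points (p = 0.766, exact permutation test).

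All 16 named bins, the 19 of 20 named promoters that were tested in all 20 libraries and the 25 of 27 called list promoters that were so tested changed in Con liver with the same sign as in AME liver. The same held for 99.46% of all rising and 99.55% of all falling bins called in AME. For promoters called in AME it held for 99.92% of the rising and 99.44% of the falling. In Con liver Fut11 went from 0.0717% to 46.1%, Abcg8 from 5.54% to 56.3%, the Slc22a23 bin from 67.8% to 9.04% and Fgb from 61.6% to 23.7%. All 37 bins that left the range under 5% in AME rose in Con, from a mean of 2.32% to 43.8%, although only 20 met the same limits in every Con library. Lyl1 rose from 1.62% to 29.6% in Con against 0.106% to 40.2% in AME, with an unadjusted interaction p of 0.00016 and an adjusted p of 0.60 (limma).

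**Figure D5:**
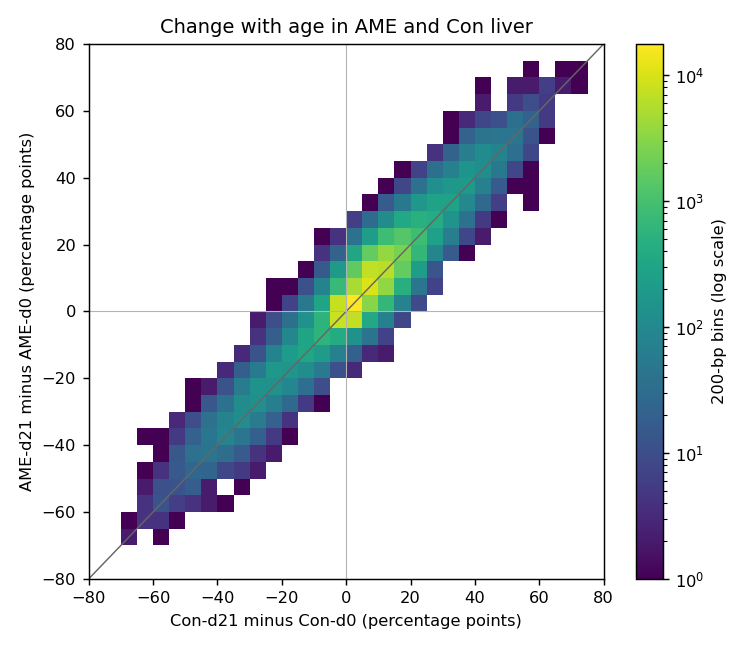
Change with age of 200-bp bins in percentage points, Con-d21 minus Con-d0 (horizontal axis) against AME-d21 minus AME-d0 (vertical axis), with colour for the number of bins on a log scale and a line of equal change. The 104589 bins lie along the line, with a correlation of 0.921, and most lie in the quadrant where both rose.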

How the data were processed

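Groups were taken from the sample labels, and further details of the animals from the study's methods. For each library the authors deposited counts of methylated and unmethylated reads per CpG, not normalized, with their total and the deposited percent, which is the methylated share. Bismark, BWA, Trim Galore and FastQC are named in the submitters' processing notes, with build mm10. Deduplication and strand merging are not given in the sources used here, and duplicate reads would make counts look more precise than they are. Totals were 23248139 to 36802549 reads over CpGs per AME library.

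Positions not CG in GRCm38 (0.862% of autosomal positions) were removed. Genes came from GENCODE M21 and promoter sequences from RefSeq. Islands were 500 bp windows holding 55% or more G and C, in which CpGs reached 0.65 of the number expected from base content. A quasi-binomial logistic model was fitted to each CpG (Python 3.11.15, scipy 1.17.1). Bins and promoters were compared with limma 3.58.1 in R 4.3.3, and means with exact permutation tests. Scripts were tested on simulated data.

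The members, gene lists and naming rule were chosen with earlier results of these data known. The rule names the 8 bins with the largest change in each direction (at least 3 CpGs, ages not overlapping, 1 per nearest gene), the 10 protein-coding promoters with the largest change in each direction (at least 5 CpGs), up to 4 called promoters per list, the 5 merged regions per direction with most bins, and the genes the study followed, and a part of them is given. Alternatives changed the coverage minimum, test, thresholds, window and libraries.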

Additional observations from a re-analysis of the deposited data

Results flagged for a closer look

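Of 94 groups of 5 libraries examined for a single value far from the rest, 8 had one, where chance gives about 1 in 20. The library labelled AME-d21 replicate 4 accounted for 3 of them: 2.88 X-chromosomal reads per 100 autosomal reads against 1.53 to 1.55 in the others, 14.3 Y short-arm reads per 1000000 reads against 166 to 191, and 0.0586% methylated mitochondrial reads against 0.228% to 0.275%. AME-d0 replicate 4 held 1894 mitochondrial reads per 1000000 reads, where the other AME-d0 libraries held 884 to 1023. The Kdm4a bin, whose nearest start is that of St3gal3, read 84.8% in AME-d0 replicate 5 against at most 76.7% in the others. The Hes7 promoter read 80.7% in AME-d21 replicate 3 against at most 71.5%. The Scnn1a promoter read 4.76% in AME-d0 replicate 3 against at least 10%, and 74.4% in AME-d21 replicate 3 against at most 54.9%.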

How the results depend on the processing

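The direction of every result was kept under all alternatives run. The rise of mean methylation (4.46 to 5.05 points with 1 library left out) and the 16 named bins kept their call throughout. DMCs that rose and fell numbered 11819 and 2507 at 20 reads, 88438 and 10370 by a likelihood-ratio test without overdispersion, 59683 and 7654 by limma, 56585 and 7063 by limma with the replicate block, 47072 and 7309 at an adjusted p, 7610 and 2383 without AME-d0 replicates 1 and 3, and 3754 and 1082 without these and the library labelled AME-d21 replicate 4. With 1 library left out they numbered 13418 to 15183 and 3353 to 3733. Bins that rose numbered 51586 at 5 reads, and 12462 rose and 1367 fell at 20 reads, where fewer CpGs qualify, and 8246 and 1830 at a minimum of 20 points, where 18.2% of calls were falls against 8.58%. Leaving out 1 library gave 29594 to 34217 rising and 2967 to 3125 falling bins. Promoters that rose and fell numbered 543 and 100 at 20 reads, 794 and 115 within 500 bp, 718 and 107 with at least 5 CpGs, and 3046 and 497 with no minimum difference. Within 2 kb 2066 rose, and without the 3 libraries 825 rose. Leaving out 1 library gave 1075 to 1258 rising and 154 to 168 falling promoters.

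The replicate numbers name samples of different dams, and deviations of same-numbered libraries were uncorrelated (-0.0111 to -0.00246). With the replicate block 33024 bins rose and 3035 fell, and 1154 promoters rose and 157 fell. The promoters whose change differed between AME and Con numbered 1 with the replicate block (Dapk3, at most 0.270% in any group), 1 without AME-d21 replicate 3 (E330009J07Rik, at most 0.363%), and 0 in the other alternatives, so the range with 1 library left out was 0 to 1. Of the list counts 806 of 840 stayed within 1.5 times. Where no reason is given, the cause of a changed count was not tested. The tests cover counting error and the spread between animals. At 10 reads a single CpG is coarse, and differences under 10 points were not called. CpG-poor sequence is thinly covered by RRBS.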

Other observations

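Mitochondrial reads differed between the ages. Per 1000000 reads, the AME-d0 libraries held 884, 954, 1023, 1894 and 944, and the AME-d21 libraries 6329, 7700, 8350, 4157 and 7618, with no overlap. The Con libraries held 892 to 1441 at d0 and 6432 to 7688 at d21. The lowest AME-d21 value is that of the library labelled replicate 4.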
